A study of Mus musculus with 18 samples.

Results

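The collagen gene family was followed in neutrophils sorted from 6 mouse tissues. The family was taken as every protein-coding gene of the deposited table whose mouse symbol is Col, a number, the letter a and a number, with low genes kept. This gave 44 genes of the 32328 in the table, of which 21599 are protein-coding. The mice were adult C57BL/6 animals of 8 to 12 weeks, and the labels name no mutation, transgene, treatment or sex. The groups, of 3 libraries each and 18 in all, were Blood, bone marrow (BM), Spleen and Lung, with Intestine taken from colon and Skin from ear. Cells were sorted on Ly6G, CD11b, CD45 and the dead-cell dye DAPI, with a stated purity that was typically over 95%, so that every group carries the same Ly6G+ gate. The series compares the neutrophil transcriptome from tissue to tissue. The labels do not say whether the replicates are separate animals, so each p-value measures the spread between these libraries, which may be technical.

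Collagens are helical trimers of alpha chains, each chain coded by its own gene, and they form the fibrils, networks and filaments of the extracellular matrix. Fibrillar chains are known as products of fibroblasts, type IV chains of cells that sit on a basement membrane such as endothelium, epithelium and muscle, and some transmembrane chains of epithelium. Neutrophils are known less for making collagen than for cutting it, with the granule proteases Mmp8 and Mmp9. In a library made from sorted neutrophils, the level of collagen RNA is therefore read beside markers of the cells that usually make it.

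Deposited values are estimated read counts, scaled by library and not divided by gene length, and are called scaled counts here. The estimated counts totalled 2.94e+06 in Lung replicate 1 and 1.21e+07 in Spleen replicate 2, the lowest and highest of the 18 libraries, and between 9158 genes in Skin replicate 2 and 16058 in Spleen replicate 2 had any count. A gene with no count stands at a floor set by an offset, from 0.0364 to 0.216 scaled counts depending on the library, and is given below as the floor. The value of 3 counts, used as the limit of detection, ran from 0.218 to 1.3 scaled counts, the highest in Skin replicate 2, and covers counting error only. The label of neutrophils was checked against 10 markers, among them Ly6g, S100a8, S100a9, Cxcr2 and Csf3r. Their summed scaled count was 34853 to 38646 in Blood, 41085 to 51441 in BM and 17811 to 22453 in Spleen. The Lung libraries had 7842, 12434 and 23196, the Intestine libraries 1855, 1302 and 1621, and the Skin libraries 1593, 21862 and 12557. The 3 Intestine libraries and Skin replicate 1 thus stood apart from the rest with the lowest neutrophil marker levels. Against Blood, 10 of the 10 markers were lower in Intestine, 7 in Lung, 6 in Skin, 6 in Spleen and 0 in BM, and none was higher. Of all genes tested, 17.6%, 5.16%, 3.76%, 2.53% and 1.26% were lower, in the same order.

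Collagen RNA was abundant in the Intestine, Skin and Lung libraries and scarce in Blood, BM and Spleen. The 44 members summed to 121, 133 and 165 scaled counts in Blood, 107, 69.7 and 114 in BM, and 123, 81.2 and 92.2 in Spleen. They summed to 8378, 15283 and 13896 in Intestine, 5773, 2843 and 1523 in Skin, and 2251, 1228 and 363 in Lung. Every library of Lung, Intestine and Skin was above every library of the other 3 groups, the lowest of the Intestine libraries was above the highest of Skin, and Lung and Skin overlapped. As a share of all estimated counts the family took 0.798%, 1.86% and 1.66% in Intestine, 0.293%, 0.143% and 0.0342% in Lung and 0.378%, 0.115% and 0.137% in Skin. In Blood, BM and Spleen it took 0.00640% to 0.0167%. Within Lung and within Skin the library with the highest family sum was replicate 1, and in each tissue that was also the library with the lowest neutrophil marker sum. These are bulk samples, in which fewer cells of a type and less RNA per cell cannot be told apart.

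**Figure D1:**
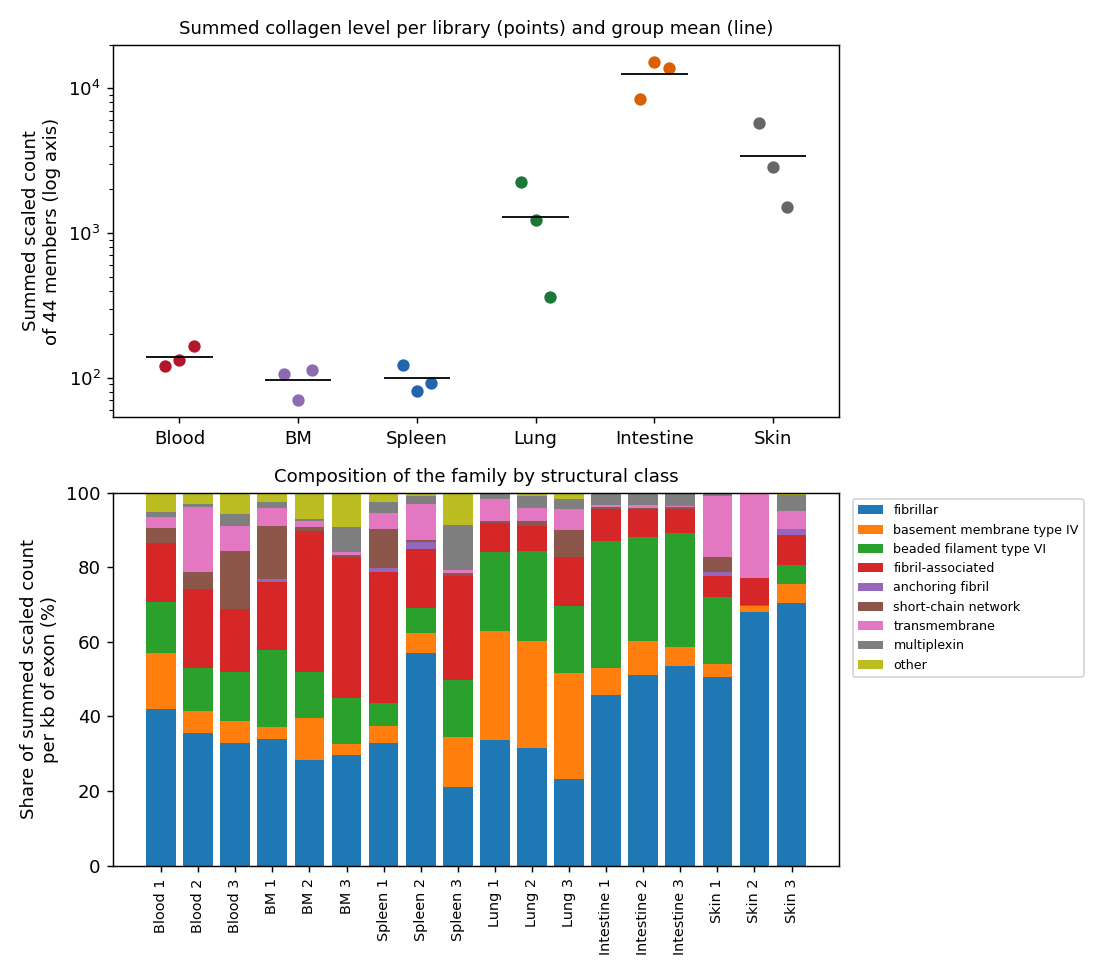
Top: summed scaled count of the 44 collagen genes in each library (points, log axis) with the group mean (line). Bottom: share of each structural class in the summed scaled count per kb of exon, 1 bar per library. Lung, Intestine and Skin lie above 300 scaled counts and Blood, BM and Spleen below 200, and type IV takes 28.2% to 29.4% in each Lung library.

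The number of members detected differed less than the sum. With more than 3 counts, 26 to 32 members were seen in Blood, 16 to 30 in BM, 18 to 30 in Spleen, 27 to 35 in Lung, 37 or 38 in Intestine, and 36, 13 and 25 in Skin replicates 1, 2 and 3. By group mean, 26 members were highest in Intestine, 12 in Skin, 5 in Lung and 1 in Spleen, and none in Blood or BM. This ranks means with no test, and the same ranking was not made for all genes. Of the tested members highest in Skin, only Col17a1 passed against the next tissue in its order of means. Some rest on 1 library: Col9a3 had 183, 0 and 0 estimated counts in Skin, and Col2a1 had 0, 0 and 2. A mean of at least 100 scaled counts was reached by 16 members in Intestine, 7 in Skin, 5 in Lung and none elsewhere. A mean of at least 5 in any tissue was reached by 37 members, and 7 stayed under it everywhere.

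**Figure D2:**
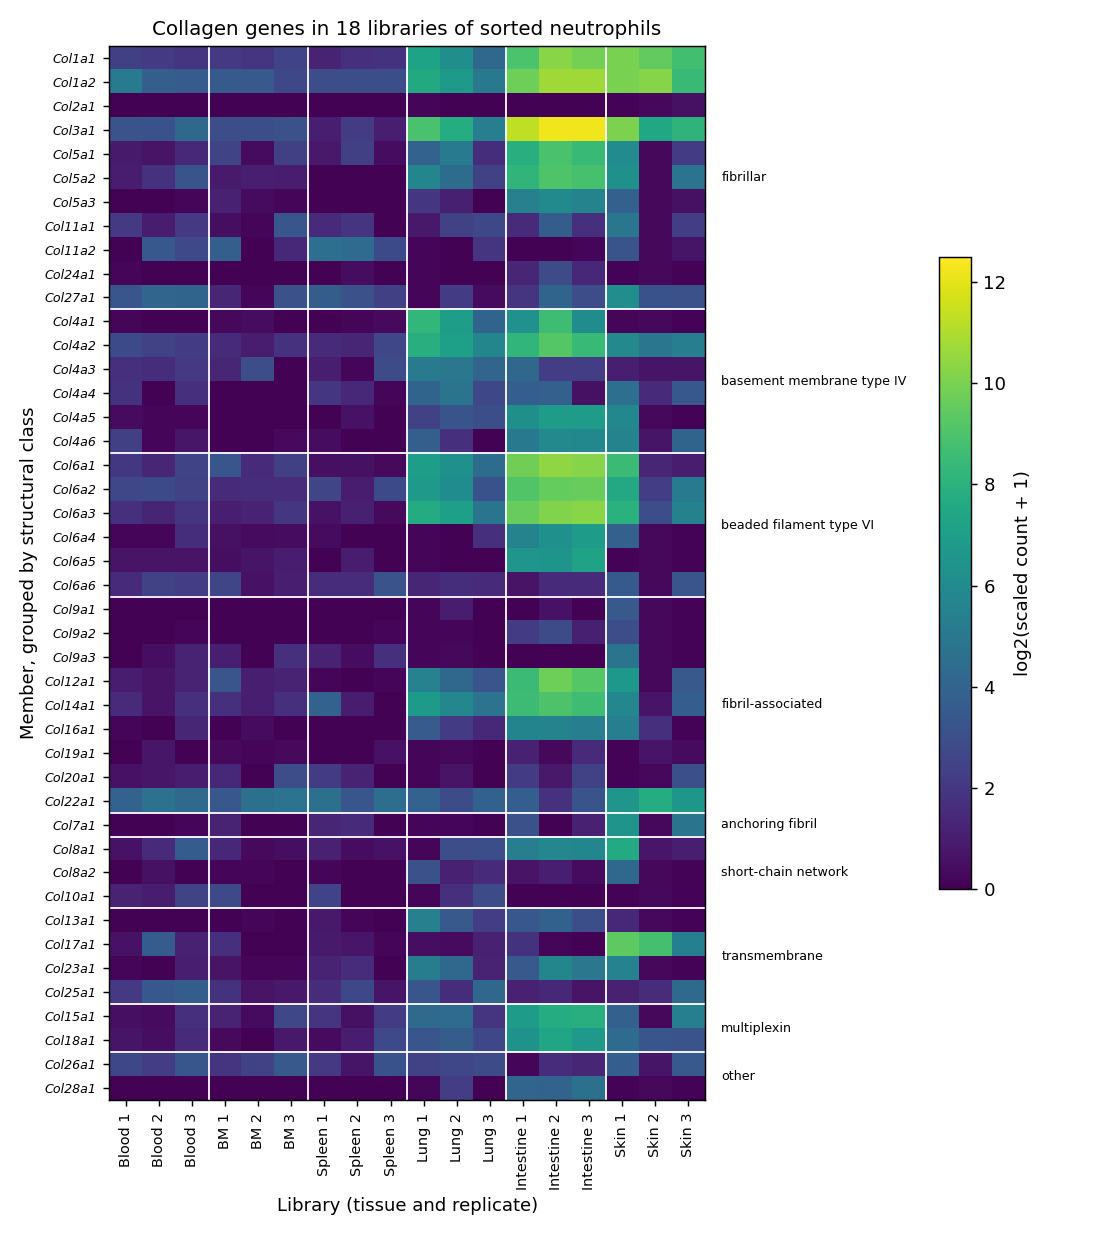
log2(scaled count + 1) of the 44 collagen genes (rows, grouped by structural class) in the 18 libraries (columns, grouped by tissue). The brightest cells are the fibrillar and type VI chains in Intestine, up to 4837 scaled counts for Col3a1, and Col17a1 is bright in Skin only.

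The comparisons asked which members differ between tissues. They were made with limma on log2(scaled count + 1) over all 16157 genes that passed a filter on low values, with Benjamini-Hochberg adjustment at 0.05, and log2 differences are on this scale, which understates the change of low genes. Of the 44 members 41 passed the filter, which kept genes that reached 1 scaled count in 3 or more libraries. A member can pass it through the one tissue where it is high, as Col6a5 and Col24a1 did through Intestine. Both are among the F test and Intestine calls below. An F test of any tissue difference called 32 of the 41, against 40.4% of all genes tested. Against Blood, 20 members were called in Lung, 19 higher and 1 lower, where 15.9% of all genes were called, 10.7% higher and 5.16% lower. In Intestine 28 were called, 26 higher and 2 lower, where 41.3% of all genes were called, 23.7% higher and 17.6% lower. In Skin 5 were called, all higher, against 5.41% of all genes and 1.65% higher. In Spleen 2 were called, both lower, against 8.47% of all genes and 2.53% lower. In BM 0 were called by limma, with 2 at an unadjusted p under 0.05, and 2.88% of all genes were called, 1.62% higher and 1.26% lower. All 5 comparisons share the same Blood libraries.

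The median log2 difference from Blood of the 41 members was 1.69 in Lung, 4.27 in Intestine, 1.53 in Skin, -0.29 in Spleen and -0.19 in BM. Over all genes tested it was 0.03, 0.12, -0.26, 0.03 and -0.004. Other scalings shifted the all-gene medians by more than 0.1, for Intestine to -0.17 with quantile scaling and 0.54 with median-of-ratios scaling, for Lung to -0.12 and 0.16, and for Skin to -0.09 and -0.01. The members' medians under the same scalings were 3.81 and 4.63 in Intestine, 1.10 and 1.67 in Lung, and 1.61 and 1.68 in Skin, each above its all-gene median. Without Skin replicate 1, 2 members were called in Skin, and also 2 without Skin replicate 3. In Spleen 1 was called without Spleen replicate 1 or 2, Blood replicate 2, Lung replicate 2, Skin replicate 3 or any 1 of the Intestine libraries. Without Lung replicate 1, 11 were called in Lung, and 10 without Lung replicate 2. The F test without the Intestine libraries called 17.

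**Figure D3:**
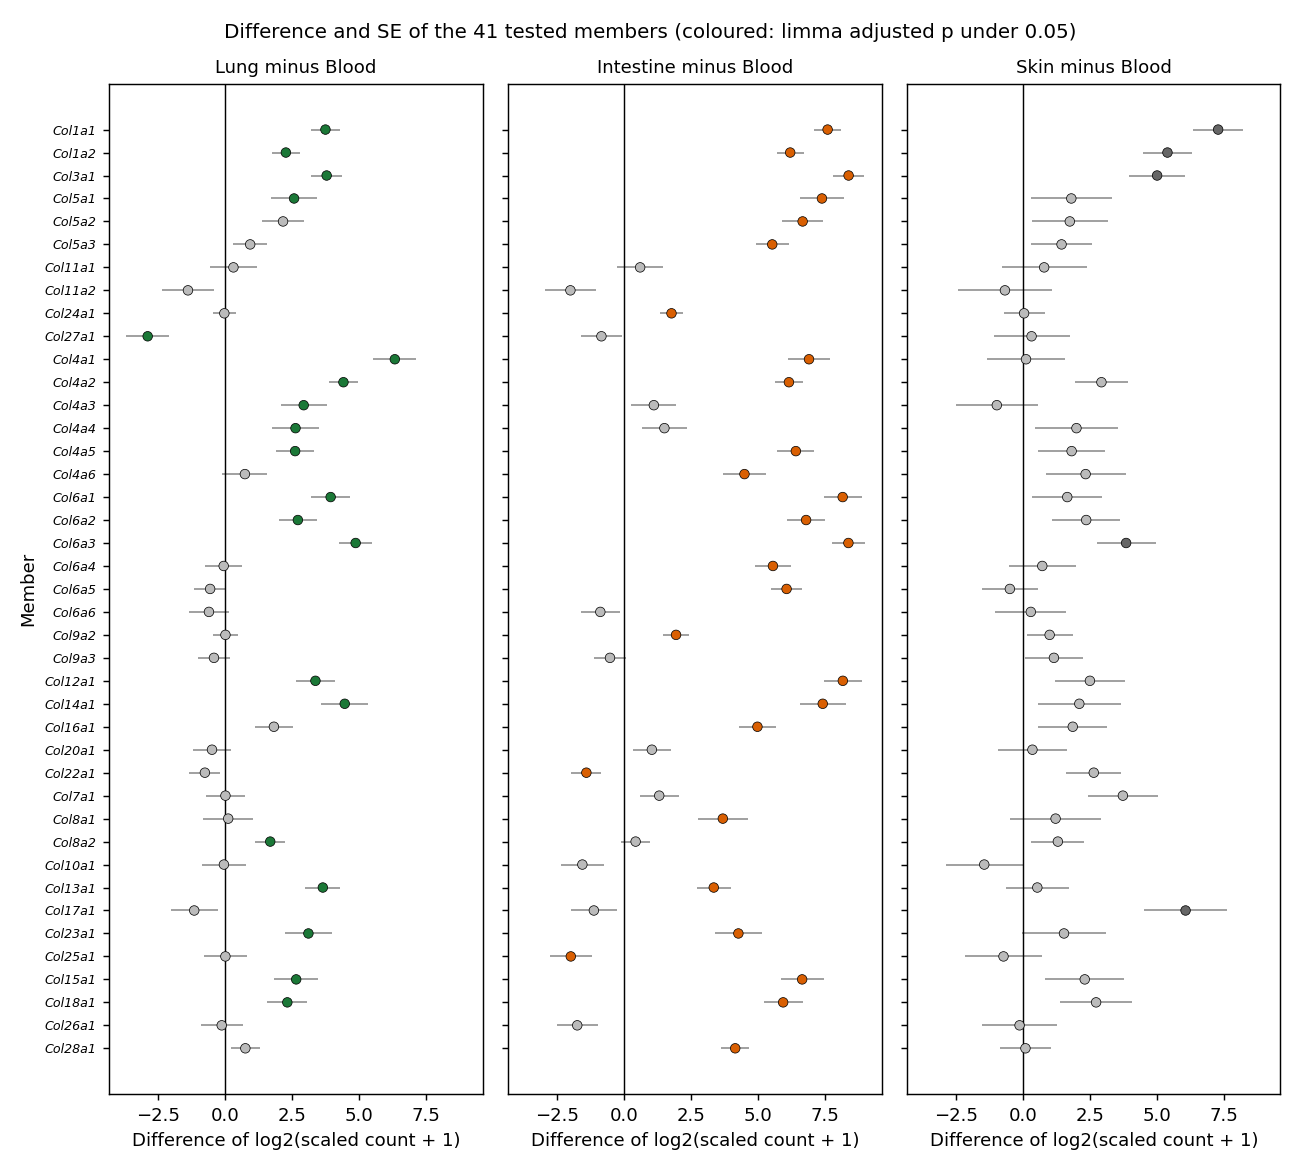
Difference of log2(scaled count + 1) from Blood with its SE for the 41 tested collagen genes in Lung, Intestine and Skin (coloured or dark points: limma adjusted p under 0.05, pale grey points: not under it). In Lung 19 members are higher and 1 lower, in Intestine 26 higher and 2 lower, and in Skin 5 higher with wider error bars.

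Fibrillar chains were the largest class of the family, per kb of exon, in each Intestine and Skin library. They were also the largest in each Blood library, Lung replicates 1 and 2, BM replicate 1 and Spleen replicate 2. Col1a1 and Col1a2 code the chains of type I collagen, the main fibril of dermis and tendon, and Col3a1 codes type III collagen of vessel walls, gut wall and skin. In Lung Col1a1 was at 151, 73.2 and 16.9, in Intestine at 502, 1259.6 and 949, and in Skin at 1029.7, 719 and 421. Blood Col1a1 was at 4.13, 3.43 and 2.67, BM at 3.21, 2.80 and 4.78, and Spleen at 1.28, 2.36 and 2.60. Its Intestine and Skin libraries overlapped, every Lung library lay between those and the other 3 tissues, and Blood, BM and Spleen were near each other. Col1a1 (GRCm38 chr11:94936224-94953042) averaged 904 ± 381 in Intestine and 723 ± 304 in Skin (SD, n = 3). Against Blood its log2 difference was 3.75 ± 0.53 (adjusted p = 2.89e-05) in Lung, 7.59 ± 0.51 (adjusted p = 2.41e-10) in Intestine and 7.28 ± 0.94 (adjusted p = 0.000167) in Skin, each with its SE. Between neighbours in its order of levels, Lung passed above BM, while Intestine and Skin (adjusted p = 0.932) and Skin and Lung (adjusted p = 0.124) did not pass.

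In Lung Col1a2 was at 189, 106 and 31.9, in Intestine at 847, 1657 and 1677, and in Skin at 1023, 1214 and 351. Blood Col1a2 was at 35.0, 12.9 and 10.9, BM at 10.8, 10.1 and 5.54, and Spleen at 6.68, 6.89 and 7.02. As with Col1a1, Intestine and Skin overlapped and every Lung library was below both, although Lung replicate 3 was under the highest Blood library. For Col1a2 (chr6:4504814-4541544) the difference from Blood was 2.27 ± 0.51 (adjusted p = 0.00335) in Lung, 6.20 ± 0.50 (adjusted p = 2.93e-09) in Intestine and 5.39 ± 0.92 (adjusted p = 0.00199) in Skin. The Lung call was lost without Lung replicate 2 (adjusted p = 0.0688). In Lung Col3a1 was at 482, 213 and 39.6, in Intestine at 2518, 4778 and 4837, and in Skin at 1045, 178 and 279. Blood Col3a1 was at 8.31, 8.00 and 17.9, BM at 6.83, 7.03 and 7.59, and Spleen at 1.04, 3.60 and 1.09. Here Intestine stood above all Skin libraries, Skin and Lung overlapped, and Spleen was below every Blood and BM library. For Col3a1 (chr1:45311538-45349706) the difference from Blood was 3.79 ± 0.58 (adjusted p = 7.25e-05) in Lung, 8.38 ± 0.57 (adjusted p = 2.41e-10) in Intestine and 5.0 ± 1.04 (adjusted p = 0.00769) in Skin. In Spleen it was -2.11 ± 0.45 (adjusted p = 0.00399), the firmer of the 2 members that fell there. The Skin call of Col3a1 was lost on leaving out any 1 of Skin replicates 1 and 3 (adjusted p from 0.0603 to 0.121).

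Sequences before the start of 3 members are shown for 2 fibrillar chains that were high in Intestine and Skin, Col1a2 and Col3a1, beside the member that was higher in Skin than in Intestine, Col17a1. They come from the 250 bases before the RefSeq start in GRCm38.p6, kept to the longest stretch outside every GENCODE vM21 exon, and are written 5′ to 3′ on the gene's strand. They lie at chr6:4505370-4505492 on the plus strand for Col1a2, within the gene as GENCODE draws it and ahead of its main first exon, at chr1:45311288-45311537 on the plus strand for Col3a1 and at chr19:47692095-47692292 on the minus strand for Col17a1. Capitals mark the CCAAT motif, the TATAAA motif of TATA boxes or the GGGCGG motif of GC boxes, each searched on both strands.
Col1a2: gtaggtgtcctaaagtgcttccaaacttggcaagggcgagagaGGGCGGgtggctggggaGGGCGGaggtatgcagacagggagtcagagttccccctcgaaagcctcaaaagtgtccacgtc
Col3a1: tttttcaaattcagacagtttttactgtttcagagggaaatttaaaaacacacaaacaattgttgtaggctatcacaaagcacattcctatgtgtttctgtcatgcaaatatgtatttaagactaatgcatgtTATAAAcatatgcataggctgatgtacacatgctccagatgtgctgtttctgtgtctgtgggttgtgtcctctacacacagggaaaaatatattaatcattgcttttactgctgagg
Col17a1: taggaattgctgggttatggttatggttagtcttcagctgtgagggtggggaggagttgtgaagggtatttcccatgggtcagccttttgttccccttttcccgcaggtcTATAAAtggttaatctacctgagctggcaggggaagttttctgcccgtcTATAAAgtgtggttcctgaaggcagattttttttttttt
The Col1a2 stretch held 2 GGGCGG, the Col3a1 stretch 1 TATAAA and the Col17a1 stretch 2 TATAAA, all on the gene's strand. CCAAT was found in a promoter of 250 bases of Col1a2 and of Col17a1, but not in the shorter stretches shown. RefSeq promoters were found for 35 of the 44 members, 38 promoters in all. Over the whole 250 bases, CCAAT was in 13 of these (34.2%) and in 33.9% of all 32851 promoters, TATAAA in 5 (13.2%) and 12.4%, and GGGCGG in 22 (57.9%) and 32.7%. A match is a description of the letters and not a binding site.

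Type V collagen, whose chains start and limit fibrils of type I, followed with Intestine far above the rest. In Lung Col5a2 was at 51.9, 20.1 and 4.43, in Intestine at 285, 525 and 465, and in Skin at 75.7 and 26.3 with replicate 2 at the floor. Blood Col5a2 was at 1.02, 2.56 and 8.39, BM at 0.887, 1.09 and 0.918, and Spleen at the floor in each library. Spleen held no count of Col5a2 in any library and Skin replicate 2 none either, while the other Skin libraries overlapped Lung. For Col5a2 (chr1:45374321-45503282) the difference from Blood was 6.66 ± 0.77 (adjusted p = 3.38e-07) in Intestine, 2.16 ± 0.79 (adjusted p = 0.0642) in Lung and 1.75 ± 1.41 (adjusted p = 0.59) in Skin, so that of these Intestine passed. Its Intestine level was at least 1737-fold higher than in Spleen, taking 3 counts per library as the limit. The difference in Spleen was -1.97 ± 0.62 (adjusted p = 0.0479), a call lost on leaving out any 1 of Blood replicates 2 and 3, Intestine replicates 1, 2 and 3, Lung replicate 2, Skin replicate 3 and Spleen replicates 1 and 2 (adjusted p from 0.0501 to 0.236). In Lung Col5a1 was at 14.5, 35.6 and 2.08, in Intestine at 229, 473 and 352, and in Skin at 63.9 and 3.44 with replicate 2 at the floor. Blood Col5a1 was at 0.898, 0.599 and 1.72, BM at 4.85, 0.286 and 4.20, and Spleen at 0.813, 4.11 and 0.331. Col5a1 was higher than Blood in Intestine (adjusted p = 2.23e-07) and in Lung (adjusted p = 0.04), the latter a call lost on leaving out any 1 of Blood replicates 1 and 2, Intestine replicates 1, 2 and 3 and Lung replicates 1 and 2 (adjusted p from 0.0502 to 0.41). In Lung Col5a3 was at 3.01 and 1.15 with replicate 3 at the floor, in Intestine at 42.3, 60.0 and 47.3, and in Skin at 13.5 and 0.465 with replicate 2 at the floor. Blood Col5a3 was at 0.156 in replicate 3 and the floor in the others, BM at 1.20, 0.286 and 0.145, and Spleen at the floor in each library. Col5a3 was higher than Blood in Intestine (adjusted p = 2.25e-07), and its 3 Intestine libraries stood above all others.

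The minor fibrillar chains did not follow type I. Col11a1 and Col11a2 code chains of type XI, known from cartilage fibrils. In Lung Col11a2 was at 2.75 in replicate 3 and the floor in the others, in Intestine at 0.115 in replicate 3 and the floor in the others, and in Skin at 8.61 and 0.651 with replicate 2 at the floor. Blood Col11a2 was at 9.85 and 5.78 with replicate 1 at the floor, BM at 12.8 and 1.69 with replicate 2 at the floor, and Spleen at 22.8, 19.4 and 6.10. Col11a2 was the one member with its highest mean in Spleen, yet Spleen overlapped Blood and BM and was 1.82 ± 0.76 (adjusted p = 0.156) against Blood. In Lung Col11a1 was at 0.813, 4.56 and 5.52, in Intestine at 1.79, 11.8 and 2.34, and in Skin at 28.6 and 3.91 with replicate 2 at the floor. Blood Col11a1 was at 3.17, 0.975 and 3.15, BM at 0.365, 0.171 and 9.24, and Spleen at 1.84 and 2.87 with replicate 3 at the floor. Its groups all overlapped, and the F test did not call it. In Lung Col27a1 was at 3.60 and 0.296 with replicate 1 at the floor, in Intestine at 2.71, 15.1 and 6.87, and in Skin at 67.9, 8.01 and 7.53. Blood Col27a1 was at 9.04, 15.8 and 15.1, BM at 1.54, 0.171 and 7.53, and Spleen at 11.8, 7.47 and 4.24. Col27a1, a fibrillar chain of cartilage and other tissues, was the member that was lower in Lung than in Blood, at -2.88 ± 0.79 (adjusted p = 0.0145), and the groups did not overlap. That call was lost without Lung replicate 1 (adjusted p = 0.0762). Col24a1 stayed under 5 scaled counts by mean and was highest in Intestine, at 1.54, 6.52 and 1.73, where it was 1.77 ± 0.42 (adjusted p = 0.00157) against Blood and at least 7.20-fold higher than in Lung. It reached 1 scaled count in the Intestine libraries alone, so it passed the filter only through the tissue where it was called. Without any 1 of them it was not tested. Col2a1, the chain of cartilage fibrils, had no count in 17 libraries and 2 counts in Skin replicate 3, and was not tested.

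Fibroblast markers, by their sum, were high with the fibrillar chains in Intestine, but not in each Skin library. Their sum over 11 genes, such as Pdgfra, Lum and Clec3b, was 2896, 4675 and 4732 in Intestine, 1239, 1081 and 437 in Lung, and 1835, 803 and 211 in Skin. It was 385 to 499 in Blood, 394 to 588 in BM and 268 to 458 in Spleen. Intestine stood above every other library and Lung replicate 3 lay within the range of Blood. Skin replicate 3 lay below each Blood library, although its fibrillar chains summed to 1093 scaled counts, above the 104 to 893 of Lung. Most of the Blood sum did not come from Dcn, Lum, Fbln1, Dpt and Mfap5 of this list. They belong to 13 fibril-binding matrix proteins, which together summed to 46.3 to 176 in Blood and 1098 in Skin replicate 3. Against Blood 10 of the 11 rose and 1 fell in Intestine, 5 rose in Lung and 1 rose in Skin, and Fbln1 was the only one with no count in all libraries of a group, Spleen. Of all genes tested, 23.7% rose and 17.6% fell in Intestine, 10.7% rose in Lung and 1.65% rose in Skin. The part of these cells in the collagen levels was not tested.

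**Figure D4:**
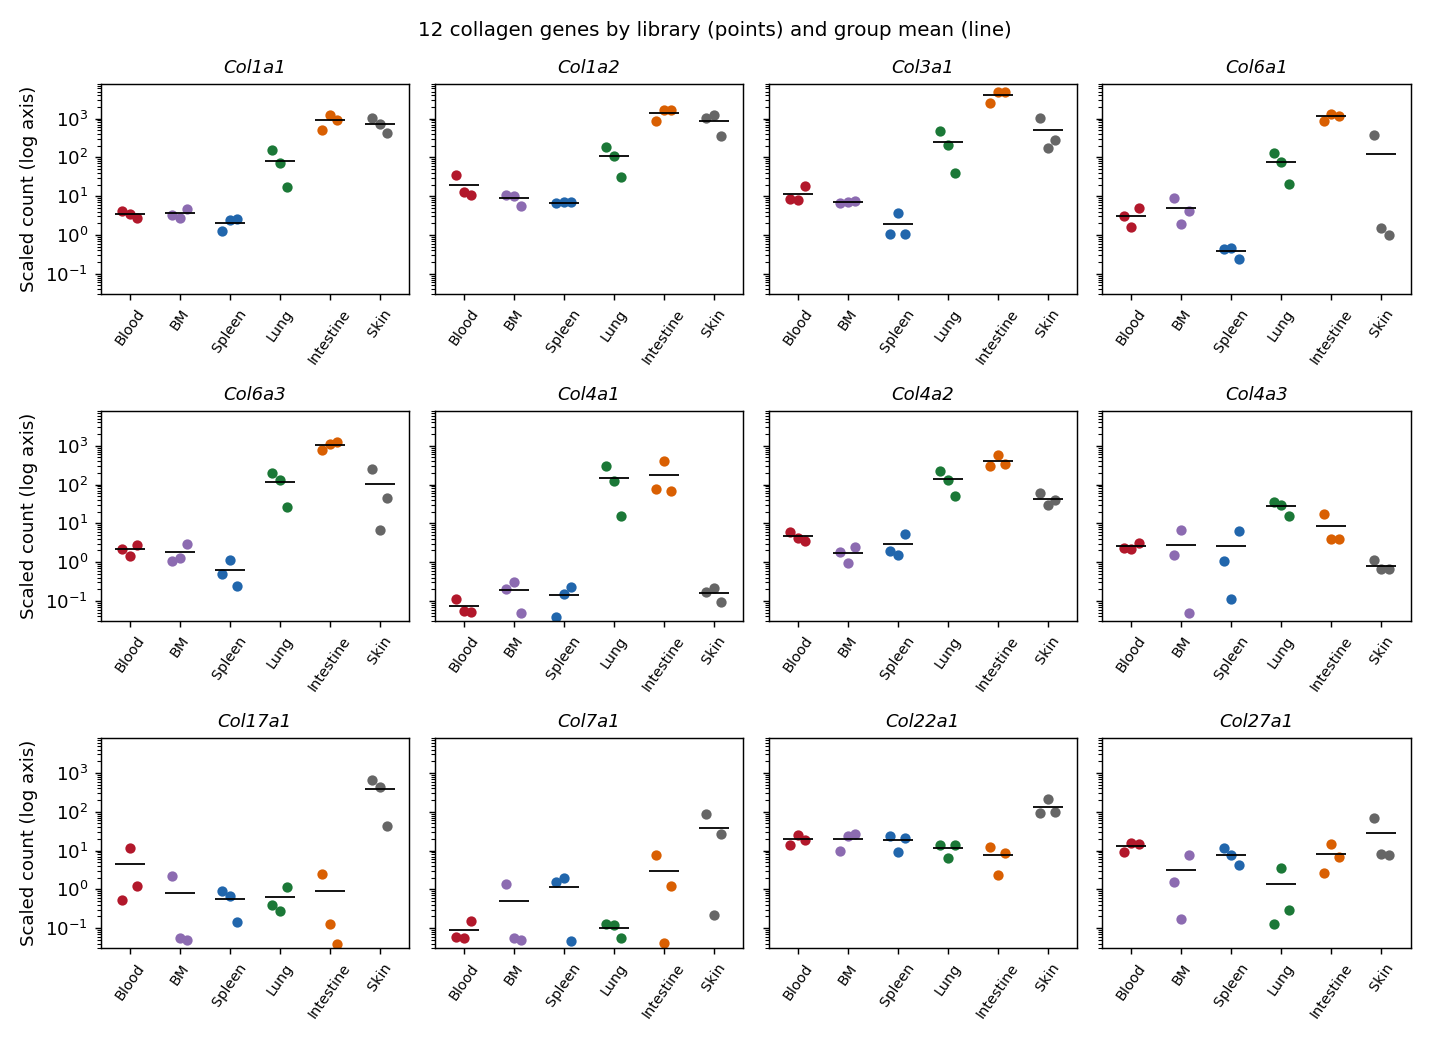
Scaled count (log axis) of 12 collagen genes in each library (points) by tissue, with the group mean (line). Col1a1, Col1a2 and Col3a1 are high in Intestine and Skin, Col4a1 is below 1 in Skin while Col4a2 is at 29.2 to 58.9 there, and Col17a1 is above 40 in each Skin library and below 12 in every other library.

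Type IV chains, the network of basement membranes, held a larger family share per kb of exon in Lung than in Intestine or Skin. That share was not tested. By level Lung did not stand out, as the type IV sum was 606, 327 and 95.3 in Lung and 511, 1178 and 588 in Intestine. Col4a1 and Col4a2 code the chains of the network found in nearly all basement membranes and lie head to head. In Lung Col4a1 was at 308, 125 and 15.6, in Intestine at 77.8, 395 and 66.4, and in Skin at 0.174 in replicate 1 and the floor in the others. Blood Col4a1 was at 0.110 in replicate 1 and the floor in the others, BM at 0.203 and 0.314 with replicate 3 at the floor, and Spleen at 0.147 and 0.230 with replicate 1 at the floor. Lung and Intestine overlapped and were above all other libraries, and Skin was as near to the floor as Blood, BM and Spleen. For Col4a1 (chr8:11198423-11312826) the difference from Blood was 6.33 ± 0.81 (adjusted p = 8.63e-06) in Lung, 6.90 ± 0.79 (adjusted p = 2.76e-07) in Intestine and 0.11 ± 1.44 (adjusted p = 0.994) in Skin. Skin against Intestine gave -6.79 ± 1.52 (adjusted p = 0.0217), a call lost on leaving out any 1 of Intestine replicate 2 and Skin replicates 1 and 3 (adjusted p from 0.0518 to 0.221), and Skin against Lung -6.22 ± 1.52 (adjusted p = 0.0956). In Lung Col4a2 was at 229, 134 and 51.6, in Intestine at 297, 588 and 342, and in Skin at 58.9, 29.2 and 39.7. Blood Col4a2 was at 6.04, 4.30 and 3.49, BM at 1.83, 0.971 and 2.46, and Spleen at 1.89, 1.56 and 5.34. Col4a2 was above every Blood, BM and Spleen library in all 9 libraries of the other tissues, Skin included, and only Lung replicate 3 fell within the range of Skin. For Col4a2 (chr8:11312805-11449287) the difference from Blood was 4.42 ± 0.55 (adjusted p = 6.75e-06) in Lung, 6.15 ± 0.53 (adjusted p = 6.94e-09) in Intestine and 2.93 ± 0.98 (adjusted p = 0.0809) in Skin. No neighbours in its order of levels passed against each other.

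The pair parted in Skin, where Col4a2 had 400, 67.0 and 213 estimated counts and Col4a1 0.7, 0 and 0. This was not particular to Skin. At lower counts, Col4a2 had 50, 39 and 33 in Blood, 17, 8 and 25 in BM, and 24, 21 and 56 in Spleen. Col4a1 had at most 0.42 in Blood, 2.25 in BM and 1.93 in Spleen. In the RefSeq annotation of GRCm38.p6 their starts lie at base 11312826 of chromosome 8 on the minus strand for Col4a1 and base 11312805 on the plus strand for Col4a2, so that the transcripts share 22 bases. Per kb of exon the ratio of Col4a1 to Col4a2 was 0.267 to 1.19 in Lung and 0.172 to 0.596 in Intestine, and it was not formed where either chain had under 10 counts. Strand use in the authors' counting is not given in the sources used here. The shared stretch is shorter than a read of 61 bases. Of the annotated stretches of 61 bases, 0 of Col4a1 and 0 of Col4a2 occur in transcripts of another gene on either strand.

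Col4a3, Col4a4 and Col4a5 form the network of alveolar and glomerular basement membranes, and Col4a5 with Col4a6 that of smooth muscle and epidermis. In Lung Col4a5 was at 4.31, 8.45 and 7.02, in Intestine at 73.0, 120.2 and 119, and in Skin at 56.3 in replicate 1 and the floor in the others. Blood Col4a5 was at 0.299, 0.163 and 0.156, BM at the floor in each library, and Spleen at 0.545 in replicate 2 and the floor in the others. Col4a5 was high in each Intestine library and in Skin replicate 1 alone among Skin libraries. For Col4a5 (chrX:141475385-141689234) the difference from Blood was 2.62 ± 0.70 (adjusted p = 0.0124) in Lung, lost without Lung replicate 2 (adjusted p = 0.144), and 6.41 ± 0.69 (adjusted p = 1.21e-07) in Intestine. In Lung Col4a6 was at 12.9 and 2.18 with replicate 3 at the floor, in Intestine at 32.7, 58.1 and 56.4, and in Skin at 46.9, 0.649 and 15.3. Blood Col4a6 was at 4.13, 0.163 and 0.677, BM at 0.242 in replicate 3 and the floor in the others, and Spleen at 0.348 in replicate 1 and the floor in the others. Col4a6 was highest in Intestine replicates 2 and 3, and Skin replicate 1 lay between these and Intestine replicate 1. For Col4a6 (chrX:141165403-141474076) the difference from Blood was 4.49 ± 0.82 (adjusted p = 0.000109) in Intestine, 0.74 ± 0.84 (adjusted p = 0.611) in Lung and 2.34 ± 1.49 (adjusted p = 0.452) in Skin. Per kb the ratio of Col4a5 to Col4a6 was 2.45 to 2.65 over the 3 Intestine libraries.

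Col4a3 and Col4a4 were the type IV chains with their highest means in Lung. In Lung Col4a3 was at 36.2, 30.4 and 15.7, in Intestine at 17.6, 3.86 and 3.88, and in Skin at 1.10, 0.649 and 0.651. Blood Col4a3 was at 2.33, 2.12 and 3.18, BM at 1.51 and 6.69 with replicate 3 at the floor, and Spleen at 1.04, 0.109 and 6.48. Lung Col4a3 overlapped Intestine through Intestine replicate 1 and lay above all libraries of Skin, Blood, BM and Spleen. In Lung Col4a4 was at 15.1, 27.0 and 5.46, in Intestine at 12.4, 13 and 0.501, and in Skin at 23.0, 1.95 and 9.98. Blood Col4a4 was at 2.58 and 2.25 with replicate 2 at the floor, BM at the floor in each library, and Spleen at 2.90, 1.64 and 0.142. Lung Col4a4 overlapped both Intestine and Skin. Against Blood Col4a3 was 2.93 ± 0.85 (adjusted p = 0.0202) and Col4a4 2.63 ± 0.86 (adjusted p = 0.0399) in Lung, and neither passed in Intestine. The Col4a3 call was lost on leaving out any 1 of Lung replicates 1 and 2 (adjusted p from 0.0808 to 0.174), and that of Col4a4 on leaving out any 1 of Blood replicate 2 and Lung replicates 1 and 2 (adjusted p from 0.114 to 0.322). Lung against Intestine passed for neither (adjusted p = 0.298 and 0.579). Exons of Col4a3 overlap a noncoding gene on the opposite strand over 5.65% of their length.

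Endothelial markers were high in Lung and Intestine, as Col4a1 was. The sum of 11 genes such as Pecam1, Cdh5 and Kdr was 3228, 2115 and 853 in Lung and 650.0, 2024 and 904 in Intestine. In the Skin libraries it was 60.8, 287 and 188, with 66.1 to 67.1 in Blood, 12.2 to 59.5 in BM and 64.2 to 127 in Spleen. Against Blood 11 of the 11 rose in Lung, 11 in Intestine and 0 in Skin, where 10.7%, 23.7% and 1.65% of all genes tested rose. Clec14a had no count in Blood and Egfl7 none in BM, and no marker was without a count in every library of Lung, Intestine or Skin. The order of the 3 Lung libraries was the same for this sum as for Col4a1, and Intestine replicate 2 was the highest of its tissue for both. Neither match was particular to this pair. The Lung order was also that of the family sum and of the fibroblast and mural marker sums. Intestine replicate 2 was also the highest for the family sum and the mural sum. The part of endothelium in these levels was not tested.

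Type VI chains, which form beaded filaments between fibrils and basement membranes, were the second class of Intestine. Col6a1, Col6a2 and Col6a3 code the main trimer. In Lung Col6a1 was at 128, 77.6 and 20.7, in Intestine at 879, 1351 and 1192, and in Skin at 371, 1.51 and 1.02. Blood Col6a1 was at 3.05, 1.58 and 4.84, BM at 9.03, 1.89 and 4.20, and Spleen at 0.425, 0.473 and 0.236. Intestine was above all other libraries, and Skin ran from replicate 1, above each Lung library, to replicates 2 and 3, below each Blood library. For Col6a1 (chr10:76708792-76726168) the difference from Blood was 3.94 ± 0.73 (adjusted p = 0.000511) in Lung, 8.16 ± 0.71 (adjusted p = 7.42e-09) in Intestine and 1.65 ± 1.3 (adjusted p = 0.577) in Skin. In Lung Col6a2 was at 108, 67.3 and 7.92, in Intestine at 546, 758 and 766, and in Skin at 186, 3.79 and 34.2. Blood Col6a2 was at 5.22, 5.93 and 4.43, BM at 1.83, 2.11 and 1.98, and Spleen at 5.15, 0.909 and 6.02. Col6a2 was again above all other libraries in Intestine, Lung lay above Blood, BM and Spleen, and its Skin replicate 2 was within the range of Blood, BM and Spleen. For Col6a2 (chr10:76595762-76623630) the difference from Blood was 2.72 ± 0.71 (adjusted p = 0.0102) in Lung, lost on leaving out any 1 of Lung replicates 1 and 2 (adjusted p from 0.116 to 0.158), and 6.79 ± 0.69 (adjusted p = 6.19e-08) in Intestine. In Lung Col6a3 was at 202, 131 and 27.0, in Intestine at 774, 1113 and 1253, and in Skin at 255, 6.71 and 44.2. Blood Col6a3 was at 2.21, 1.47 and 2.76, BM at 1.10, 1.31 and 2.95, and Spleen at 0.502, 1.13 and 0.236. Col6a3 was above every Blood, BM and Spleen library in all libraries of the other tissues. For Col6a3 (chr1:90765923-90843971) the difference from Blood was 4.87 ± 0.62 (adjusted p = 8.42e-06) in Lung, 8.37 ± 0.60 (adjusted p = 6.14e-10) in Intestine and 3.85 ± 1.10 (adjusted p = 0.0408) in Skin. The Skin call was lost on leaving out any 1 of Blood replicate 2, Intestine replicates 1, 2 and 3 and Skin replicates 1 and 3 (adjusted p from 0.0552 to 0.455).

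Col6a4, Col6a5 and Col6a6 code chains that can take the place of the alpha 3 chain. In Lung Col6a5 was at the floor in each library, in Intestine at 92.1, 86.5 and 144, and in Skin at the floor in each library. Blood Col6a5 was at 0.566, 0.599 and 0.573, BM at 0.365, 0.629 and 0.965, and Spleen at 0.982 in replicate 2 and the floor in the others. Intestine alone was high, and neither Lung nor Skin held a count. The Col6a5 (chr9:105856078-105960643) level in Intestine was at least 237-fold higher than in Lung and at least 140-fold higher than in Skin, taking 3 counts per library as the limit. Against Blood it was 6.06 ± 0.57 (adjusted p = 2.1e-08) in Intestine, against Lung the adjusted p was 2.03e-06, and against Skin it was 0.00544. The call against Skin was lost without Skin replicate 3 (adjusted p = 0.155), and without any 1 of the Intestine libraries Col6a5 fell under the filter and was not tested. Col6a5 thus passed the filter only through the tissue where it was called. In Lung Col6a4 was at 2.30 in replicate 3 and the floor in the others, in Intestine at 47.3, 77.0 and 118, and in Skin at 13.5 in replicate 1 and the floor in the others. Blood Col6a4 was at 0.179, 0.163 and 2.14, BM at 0.470, 0.286 and 0.338, and Spleen at 0.270 in replicate 1 and the floor in the others. Col6a4 was likewise above all other libraries in Intestine (adjusted p = 7.59e-07 against Blood). In Lung Col6a6 was at 1.53, 2.08 and 1.82, in Intestine at 0.565, 1.80 and 1.78, and in Skin at 10.8 and 8.78 with replicate 2 at the floor. Blood Col6a6 was at 1.90, 4.53 and 3.75, BM at 5.14, 0.531 and 1.09, and Spleen at 1.97, 2.0 and 8.25. Col6a6 overlapped in most tissues, Intestine lay just below Blood and Spleen, and the F test did not call it. Col6a5 and Col6a6 share 3.19% and 3.32% of their stretches of 61 bases, the read length, so that little of their counts could be split between them.

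Fibril-associated collagens coat the surface of fibrils, and of these Col12a1 and Col14a1 passed in both Lung and Intestine. In Lung Col12a1 was at 46.1, 17.7 and 8.81, in Intestine at 364, 846 and 590.0, and in Skin at 102 and 10.1 with replicate 2 at the floor. Blood Col12a1 was at 1.02, 0.599 and 1.41, BM at 8.71, 1.09 and 1.40, and Spleen at 0.116 and 0.142 with replicate 2 at the floor. Intestine was above all other libraries, Lung above all of Blood, BM and Spleen, and Skin spread from replicate 1 above Lung to replicate 2 at the floor. For Col12a1 (chr9:79598991-79718831) the difference from Blood was 3.37 ± 0.73 (adjusted p = 0.00233) in Lung and 8.16 ± 0.72 (adjusted p = 8.04e-09) in Intestine. In Lung Col14a1 was at 110.4, 54.4 and 25.7, in Intestine at 373, 507 and 397, and in Skin at 54.5, 0.649 and 12.2. Blood Col14a1 was at 1.85, 0.599 and 2.34, BM at 2.35, 1.09 and 2.37, and Spleen at 14.3 and 0.982 with replicate 3 at the floor. Col14a1 kept Lung above Blood, BM and Spleen without overlap, and Skin covered both ranges. For Col14a1 (chr15:55307750-55520803) the difference from Blood was 4.47 ± 0.87 (adjusted p = 0.000902) in Lung and 7.41 ± 0.85 (adjusted p = 3.05e-07) in Intestine. In Lung Col16a1 was at 10.8, 3.45 and 1.63, in Intestine at 48.7, 47.2 and 39.8, and in Skin at 39.2 and 2.38 with replicate 3 at the floor. Blood Col16a1 was at 0.179 and 1.51 with replicate 2 at the floor, BM at 0.286 in replicate 2 and the floor in the others, and Spleen at the floor in each library. Col16a1 was highest in Intestine with Skin replicate 1 just below its lowest library. For Col16a1 (chr4:130047840-130099283) the difference from Blood was 4.98 ± 0.70 (adjusted p = 5.06e-06) in Intestine and 1.82 ± 0.72 (adjusted p = 0.0897) in Lung.

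Col22a1, a chain known from tissue junctions such as that of muscle and tendon, was the one chain of this class present above the limit of 3 counts in every library. In Lung Col22a1 was at 14.1, 6.56 and 13.7, in Intestine at 12.2, 2.40 and 8.63, and in Skin at 91.3, 213 and 96.8. Blood Col22a1 was at 14.3, 25.2 and 18.9, BM at 9.48, 23.7 and 26.4, and Spleen at 23.8, 9.07 and 21.7. Each Skin library was above all 15 others, Lung and Intestine lay below each Blood library, and BM and Spleen overlapped Blood. Even so Skin against Blood gave 2.64 ± 1.03 (adjusted p = 0.142) and did not pass, and Intestine against Blood gave -1.40 ± 0.56 (adjusted p = 0.0487), a call lost on leaving out any 1 of BM replicate 2, Blood replicates 2 and 3, Intestine replicates 2 and 3, Lung replicates 1 and 3, Skin replicates 1, 2 and 3 and Spleen replicate 3 (adjusted p from 0.0529 to 0.303). Per kb of exon Col22a1 had the highest mean of the family in Blood, 2.11 ± 0.597 (SD, n = 3), and in BM, 2.16 ± 0.989. In Lung Col9a3 was at 0.198 in replicate 2 and the floor in the others, in Intestine at the floor in each library, and in Skin at 27.0 in replicate 1 and the floor in the others. Blood Col9a3 was at 0.381 and 1.3 with replicate 1 at the floor, BM at 1.10 and 2.27 with replicate 2 at the floor, and Spleen at 1.28, 0.327 and 2.32. Col9a3, a chain of cartilage collagen IX, was high in Skin replicate 1 alone and was not called against Blood in any tissue or by the F test. Its exons overlap Tcfl5 on the opposite strand over 6.07% of their length. Col9a1 and Col9a2, the other chains of type IX, were also seen in Skin replicate 1, at 10.2 and 6.70, and at the floor in Skin replicates 2 and 3. Col9a1 had counts in 2 further libraries, up to 0.992, and was not tested. Col9a2 (F test adjusted p = 0.0166) was 1.94 ± 0.47 (adjusted p = 0.00195) against Blood in Intestine, at 3.56, 6.60 and 1.11. Col19a1, not tested, reached 1.88, and Col20a1 7.35 in Skin replicate 3 with no call in any comparison against Blood.

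Of the collagens known to bind epidermis to dermis, Col17a1 passed in Skin and Col7a1 did not. Col17a1 codes the transmembrane collagen of hemidesmosomes in basal keratinocytes, and Col7a1 the anchoring fibrils below them. In Lung Col17a1 was at 0.392, 0.278 and 1.18, in Intestine at 2.50 and 0.124 with replicate 3 at the floor, and in Skin at 664, 445 and 41.8. Blood Col17a1 was at 0.538, 11.5 and 1.20, BM at 2.24 in replicate 1 and the floor in the others, and Spleen at 0.889, 0.691 and 0.142. Every Skin library was above every other library, and the highest value elsewhere was in Blood replicate 2. For Col17a1 (chr19:47646344-47692094) the difference of Skin from Blood was 6.07 ± 1.56 (adjusted p = 0.0237), from Intestine 7.19 ± 1.64 (adjusted p = 0.024) and from Lung 7.21 ± 1.65 (adjusted p = 0.0741), the last of which did not pass. The call against Blood was lost on leaving out any 1 of Skin replicates 1 and 3 (adjusted p from 0.0727 to 0.203), and that against Intestine on leaving out any 1 of Intestine replicates 2 and 3 and Skin replicates 1, 2 and 3 (adjusted p from 0.0519 to 0.188). In Lung Col7a1 was at 0.119 in replicate 2 and the floor in the others, in Intestine at 7.71 and 1.19 with replicate 2 at the floor, and in Skin at 88.2 and 26.7 with replicate 2 at the floor. Blood Col7a1 was at 0.156 in replicate 3 and the floor in the others, BM at 1.41 in replicate 1 and the floor in the others, and Spleen at 1.51 and 1.93 with replicate 3 at the floor. Skin replicates 1 and 3 were above all other libraries, and replicate 2 had no count. For Col7a1 (chr9:108953586-108984875) the difference of Skin from Blood was 3.73 ± 1.32 (adjusted p = 0.102) and did not pass.

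Keratinocyte markers were, like Col17a1, highest in the Skin libraries. The sum of 8 genes, among them Krt5, Krt14 and Trp63, was 12176, 4297 and 908 in Skin, in the order of Col17a1, and 32.2 to 82.3 in Lung, 16.1 to 72.0 in Intestine, 3.88 to 13.3 in Spleen, 0.974 to 4.27 in Blood and 0.686 to 2.04 in BM. The order of the Skin libraries was also that of Col1a1, the family sum and the fibroblast sum, so it was not particular to Col17a1. Against Blood 6 of the 8 rose in Skin, 3 in Lung and 1 in Intestine. Of all genes tested, 1.65%, 10.7% and 23.7% were called higher there. Krt14 had no count in any library of Blood, BM or Intestine. The part of keratinocytes in the Skin levels was not tested.

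Of the other transmembrane collagens, Col13a1, found at muscle and neuromuscular junctions, and Col23a1 rose in both Lung and Intestine. In Lung Col13a1 was at 42.2, 10.3 and 3.76, in Intestine at 9.52, 13.6 and 7.10, and in Skin at 1.69 in replicate 1 and the floor in the others. Blood Col13a1 was at the floor in each library, BM at 0.171 in replicate 2 and the floor in the others, and Spleen at 0.811 and 0.109 with replicate 3 at the floor. No Blood library held a count of Col13a1 (chr10:61838236-61979108), and its level was at least 56.4-fold higher in Lung and at least 30.3-fold higher in Intestine, with 3 counts per library as the limit. The difference from Blood was 3.65 ± 0.65 (adjusted p = 0.000382) in Lung and 3.35 ± 0.64 (adjusted p = 0.000186) in Intestine, and Lung and Intestine overlapped. In Lung Col23a1 was at 37.8, 17.9 and 1.29, in Intestine at 10.3, 51.8 and 30.2, and in Skin at 46.3 in replicate 1 and the floor in the others. Blood Col23a1 was at 0.179 and 1.09 with replicate 2 at the floor, BM at 0.574, 0.171 and 0.145, and Spleen at 1.28 and 2.0 with replicate 3 at the floor. Col23a1 was above every Blood library in Intestine and Lung and in Skin replicate 1. For Col23a1 (chr11:51289920-51583918) the difference from Blood was 4.27 ± 0.87 (adjusted p = 0.000353) in Intestine and 3.11 ± 0.89 (adjusted p = 0.0178) in Lung, the latter lost on leaving out any 1 of Blood replicate 2 and Lung replicates 1 and 2 (adjusted p from 0.051 to 0.181). In Lung Col25a1 was at 9.11, 2.15 and 18, in Intestine at 1.25, 1.70 and 0.560, and in Skin at 1.18, 1.99 and 18.9. Blood Col25a1 was at 3.22, 9.89 and 11.8, BM at 2.59, 0.560 and 0.815, and Spleen at 2.01, 5.46 and 0.643. Col25a1, best known from neurons, overlapped in Lung, Skin and Blood, and Intestine was below each Blood library. For Col25a1 (chr3:130131501-130599877) Intestine against Blood gave -1.98 ± 0.79 (adjusted p = 0.0477), a call lost on leaving out any 1 of BM replicate 2, Blood replicates 2 and 3, Intestine replicates 1, 2 and 3, Lung replicate 1 and Skin replicates 1 and 2 (adjusted p from 0.0501 to 0.215).

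Short-chain collagens form hexagonal networks, as in the membrane under the corneal endothelium, and around vessels. In Lung Col8a1 was at 6.77 and 6.98 with replicate 1 at the floor, in Intestine at 39.4, 53.3 and 52.4, and in Skin at 199, 0.674 and 1.06. Blood Col8a1 was at 0.506, 1.87 and 11.6, BM at 1.67, 0.237 and 0.360, and Spleen at 1.20, 0.347 and 0.520. Col8a1 was even across Intestine and high in 1 of the Skin libraries. For Col8a1 (chr16:57624258-57754737) the difference from Blood was 3.69 ± 0.92 (adjusted p = 0.00251) in Intestine, 0.12 ± 0.94 (adjusted p = 0.969) in Lung and 1.22 ± 1.68 (adjusted p = 0.812) in Skin. In Lung Col8a2 was at 7.71, 1.23 and 1.85, in Intestine at 0.585, 1.04 and 0.269, and in Skin at 17.7 in replicate 1 and the floor in the others. Blood Col8a2 was at 0.490 in replicate 2 and the floor in the others, BM at 0.157 and 0.171 with replicate 3 at the floor, and Spleen at 0.116 in replicate 1 and the floor in the others. Lung Col8a2 was above each Blood library, by 1.69 ± 0.55 (adjusted p = 0.0392), a call lost on leaving out any 1 of Blood replicates 1 and 3, Lung replicates 1 and 2 and Skin replicate 2 (adjusted p from 0.0552 to 0.253). Col10a1, the chain of hypertrophic cartilage, stayed below 6.4 scaled counts, had no count in Intestine or Skin, and was not called against Blood in any tissue. Its difference from Blood was -1.55 ± 0.79 (adjusted p = 0.123) in Intestine.

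Multiplexins sit in the zone around basement membranes of vessels and epithelium, and the fragment endostatin comes from Col18a1. In Lung Col18a1 was at 9.28, 11.7 and 5.45, in Intestine at 86.0, 166 and 105, and in Skin at 19.8, 9.30 and 8.09. Blood Col18a1 was at 0.658, 0.381 and 1.93, BM at 0.261 and 0.821 with replicate 2 at the floor, and Spleen at 0.271, 0.912 and 5.72. Intestine stood apart, and Lung and Skin overlapped each other. For Col18a1 (chr10:77052178-77166548) the difference from Blood was 5.94 ± 0.73 (adjusted p = 7.19e-07) in Intestine and 2.32 ± 0.74 (adjusted p = 0.0347) in Lung, the latter lost on leaving out any 1 of Blood replicates 1 and 2 and Lung replicates 1 and 2 (adjusted p from 0.0707 to 0.26). In Lung Col15a1 was at 19.2, 19.5 and 2.64, in Intestine at 120.1, 215 and 230.1, and in Skin at 13.3 and 40.8 with replicate 2 at the floor. Blood Col15a1 was at 0.419, 0.272 and 2.34, BM at 1.3, 0.286 and 5.27, and Spleen at 2.82, 0.473 and 3.45. Col15a1 also stood apart in Intestine, and Skin spread around Lung on both sides. For Col15a1 (chr4:47208161-47313167) the difference from Blood was 6.65 ± 0.80 (adjusted p = 5.93e-07) in Intestine and 2.65 ± 0.82 (adjusted p = 0.029) in Lung, the latter lost on leaving out any 1 of Blood replicates 1 and 2 and Lung replicates 1 and 2 (adjusted p from 0.0666 to 0.273).

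The remaining members are Col26a1 and Col28a1, which fall outside these classes. In Lung Col28a1 was at 3.77 in replicate 2 and the floor in the others, in Intestine at 15.9, 14.8 and 23.5, and in Skin at the floor in each library. Blood Col28a1 was at the floor in each library, BM at the floor in each library, and Spleen at the floor in each library. Col28a1, a chain described around peripheral nerve, had counts in the 3 Intestine libraries and in 1 Lung library, and none elsewhere. The Intestine level of Col28a1 (chr6:7997808-8192617) was at least 54.4-fold higher than in Blood and at least 23.6-fold higher than in Skin, with 3 counts per library as the limit, and the difference from Blood was 4.15 ± 0.52 (adjusted p = 9.33e-07). In Lung Col26a1 was at 4.36, 5.34 and 6.20, in Intestine at 0.111, 1.98 and 1.54, and in Skin at 12.1, 0.649 and 10.2. Blood Col26a1 was at 5.54, 3.81 and 9.04, BM at 2.86, 4.31 and 10.4, and Spleen at 3.18, 0.623 and 7.75. Col26a1 overlapped in most tissues, Intestine lay below each Blood library, and the difference there was -1.74 ± 0.77 (adjusted p = 0.0735), which did not pass.

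Lung, Intestine and Skin were also compared with each other. Lung was lower than Intestine in 21 members and higher in 0, where 10.3% of all genes were called, 5.9% higher and 4.39% lower. The members' median difference was -2.04 and that of all genes -0.04, and with median-of-ratios scaling they were -2.35 and -0.35. The members with the smallest adjusted p among those lower in Lung were Col6a5 and Col6a4 of type VI and Col3a1, at -6.62 ± 0.68 (adjusted p = 2.03e-06), -5.61 ± 0.81 (adjusted p = 6.04e-05) and -4.59 ± 0.68 (adjusted p = 7.04e-05). Col6a5, and Col24a1 also among the 21, passed the filter only through the Intestine libraries, where they are high. Their adjusted p gives no separate support for that level. Of type IV, Col4a5 and Col4a6 were among the 21, and Col4a1 and Col4a2 were not called, at -0.57 ± 0.94 (adjusted p = 0.796) and -1.74 ± 0.64 (adjusted p = 0.0893). Skin was lower than Intestine in 6 members (Col4a1, Col6a1, Col6a3, Col6a5, Col12a1 and Col28a1) and higher in 1 (Col17a1), where 1.94% of all genes were called, 1.18% lower and 0.761% higher. The median difference was -2.47 for the members and -0.57 for all genes, and these were -1.44 and 0.02 with quantile scaling and -2.69 and -0.74 with median-of-ratios scaling. Each of these 7 calls was lost without Skin replicate 3, which left 0 members called. Without Skin replicate 1 there were 4, without Skin replicate 2 there were 2, without Intestine replicate 2 there were 2, and without Intestine replicate 3 there was 1. Skin against Lung called 0 members by limma, with 9 at an unadjusted p under 0.05, and 0.155% of all genes, 0.0866% higher and 0.0681% lower. Without Blood replicate 2 or without Lung replicate 3, 1 member was called there. The members' median difference was 0.03 and that of all genes -0.51, and these were 0.66 and -0.09 with quantile scaling and 0.09 and -0.39 with median-of-ratios scaling.

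The make-up of the family was compared per kb of exon, to allow for the different lengths of the genes. Exon length was the merged length of all annotated exons of a gene, which can exceed that of its main transcript. It was 6563 bases for Col1a1 and 12426 for Col1a2. Shares, ratios and ranks between genes therefore depend on this choice of length. Type IV took 29.4%, 28.7% and 28.2% of the family in Lung, against 7.21%, 9.20% and 5.27% in Intestine and 3.47%, 1.45% and 5.04% in Skin. Fibrillar chains took 45.7%, 51.0% and 53.5% in Intestine, 33.6%, 31.5% and 23.3% in Lung, and 50.7%, 68.1% and 70.4% in Skin. Type VI took 34.1%, 27.9% and 30.6% in Intestine, 21.0%, 24.1% and 18.2% in Lung, and 17.9%, 0.432% and 5.08% in Skin. Transmembrane chains, mainly Col17a1, took 16.2%, 22.3% and 4.75% in Skin and 0.421% to 0.663% in Intestine. The 3 Lung libraries, whose family sums ran from 363 to 2251, thus held nearly the same type IV share, and each was above all 6 Intestine and Skin libraries. Shares are described with no test, and replicate 2 of Skin rests on 13 members above 3 counts.

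Ratios between chains were taken per kb of exon and only where both had at least 10 counts. Some differed between Lung, Intestine and Skin. Col3a1 over Col1a1 was 2.54 to 3.41 in Intestine, 1.57 to 2.13 in Lung and 0.165 to 0.678 in Skin, with no overlap between these 3. Col4a2 over Col1a1 was 1.5 to 3.04 in Lung, 0.358 to 0.587 in Intestine and 0.0403 to 0.0935 in Skin, again with no overlap. The other tissues, at low counts, overlapped some of these ranges. Col3a1 over Col1a1 was 1.35 to 4.47 in Blood, 1.06 to 1.68 in BM and 0.280 to 1.02 in Spleen. Col4a2 over Col1a1 was 1.24 to 1.45 in Blood, 0.511 to 0.564 in BM and 0.656 to 2.04 in Spleen. The chains of the type I trimer stood nearer to each other, with Col1a1 over Col1a2 at 1.0 to 1.52 in Lung, 1.07 to 1.44 in Intestine and 1.12 to 2.27 in Skin, and at 0.223 to 0.504 in Blood, where the counts are low. Col6a1 over Col6a2 was 2.96 to 3.39 in Intestine and 2.19 to 4.97 in Lung. The size of each ratio rests on the merged exon lengths, such as 4380 bases for Col6a1 and 8326 for Col6a2. The lengths cancel where the same ratio is compared between tissues. By level per kb the leading members were Col3a1 (412 ± 135), Col6a1 (260.4 ± 54.9) and Col1a1 (138 ± 58.0) in Intestine. In Lung they were Col3a1 (24.9 ± 22.7), Col4a2 (20.9 ± 13.4) and Col4a1 (20.0 ± 19.8), and in Skin Col1a1 (110.2 ± 46.4), Col1a2 (69.4 ± 36.5) and Col17a1 (63.8 ± 52.5), each as mean ± SD in scaled counts per kb (n = 3).

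Genes that work on collagen were read from 5 lists. Their counts stand beside the shares of all genes called against Blood. These were 23.7% higher and 17.6% lower in Intestine, 10.7% and 5.16% in Lung, and 1.65% and 3.76% in Skin. In Spleen they were 5.94% and 2.53%, and in BM 1.62% and 1.26%. Among 17 enzymes and chaperones that modify and fold the chains, 10 rose and 1 fell in Intestine against Blood, 5 rose and 1 fell in Lung and 0 passed in Skin, with list medians of 2.61, 1.29 and 0.42. Serpinh1, the collagen chaperone Hsp47, was 4.48 ± 0.69 (adjusted p = 7.25e-05) in Lung and 7.66 ± 0.67 (adjusted p = 8.04e-09) in Intestine. Plod2, a lysyl hydroxylase, was 3.98 ± 0.68 (adjusted p = 0.000243) and 5.89 ± 0.67 (adjusted p = 2.56e-07). P4hb, a subunit of prolyl hydroxylase that also folds other proteins, was 1.57 ± 0.34 (adjusted p = 0.00231) and 2.81 ± 0.33 (adjusted p = 4.96e-07), and Crtap, part of the prolyl 3-hydroxylation complex, 3.21 ± 0.68 (adjusted p = 0.00189) and 4.82 ± 0.66 (adjusted p = 3.61e-06). The member that fell in both tissues was P4ha3, a catalytic subunit of prolyl hydroxylase, at -3.00 ± 0.55 (adjusted p = 0.000514) and -1.48 ± 0.54 (adjusted p = 0.0318). Of 12 tested genes of propeptide removal and cross-linking, 8 rose in Intestine, 5 in Lung and 0 in Skin, and none fell, with medians of 3.01, 0.70 and 1.16. Lox, lysyl oxidase, was 3.87 ± 0.73 (adjusted p = 0.000611) in Lung and 6.01 ± 0.71 (adjusted p = 4.44e-07) in Intestine, Loxl2 2.73 ± 0.75 (adjusted p = 0.0143) and 6.53 ± 0.74 (adjusted p = 2.29e-07), and Loxl1 3.28 ± 0.66 (adjusted p = 0.00125) and 4.40 ± 0.65 (adjusted p = 8.55e-06). Pcolce2, an enhancer of propeptide removal, was 5.24 ± 0.77 (adjusted p = 4.66e-05) in Lung and 3.56 ± 0.75 (adjusted p = 0.000539) in Intestine.

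Genes of collagen breakdown did not all move one way. Of 7, 5 rose and 2 fell in Intestine, 2 rose and 1 fell in Lung, and 0 rose and 2 fell in Skin, with medians of 4.20, 2.34 and 2.50. Those that fell were Mmp8, the neutrophil collagenase, at -2.06 ± 0.59 (adjusted p = 0.0186) in Lung, -4.35 ± 0.58 (adjusted p = 2.11e-06) in Intestine and -3.72 ± 1.05 (adjusted p = 0.0393) in Skin, and Mmp9, the gelatinase of neutrophil granules, at -4.73 ± 0.40 (adjusted p = 5.32e-09) in Intestine and -2.61 ± 0.73 (adjusted p = 0.0385) in Skin. Both are also among the 10 neutrophil markers. Mmp13, a collagenase of stromal cells, was 5.89 ± 0.68 (adjusted p = 3.04e-07) in Intestine, and the membrane-bound Mmp14 5.54 ± 0.67 (adjusted p = 5.4e-07) there and 2.70 ± 0.68 (adjusted p = 0.00768) in Lung. Of 9 tested collagen receptors, 6 rose and 2 fell in Intestine, 4 rose in Lung and 0 passed in Skin, with medians of 2.70, 1.77 and 0.79. Itga1 was 6.09 ± 0.74 (adjusted p = 5.36e-06) in Lung and 6.99 ± 0.72 (adjusted p = 7.15e-08) in Intestine, Itgb1, its partner chain, 1.77 ± 0.32 (adjusted p = 0.000363) and 2.84 ± 0.31 (adjusted p = 1.44e-07), and the receptor kinase Ddr2 2.77 ± 0.60 (adjusted p = 0.0023) and 4.67 ± 0.59 (adjusted p = 9.95e-07). Itga11 passed in Intestine, at 4.80 ± 0.72 (adjusted p = 1.05e-05).

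Matrix proteins that bind fibrils also rose in Lung, Intestine and Skin. Of 13, 12 rose in Intestine, 9 in Lung and 3 in Skin, and none fell, with medians of 7.19, 3.20 and 2.60. Dpt, dermatopontin, was 3.99 ± 0.58 (adjusted p = 4.2e-05) in Lung, 7.96 ± 0.57 (adjusted p = 5.79e-10) in Intestine and 4.59 ± 1.04 (adjusted p = 0.0115) in Skin. In the same order Sparc, a collagen-binding glycoprotein, was 5.69 ± 0.61 (adjusted p = 1.05e-06), 8.02 ± 0.60 (adjusted p = 9.95e-10) and 5.67 ± 1.09 (adjusted p = 0.00464). Fbn1, the microfibril protein fibrillin, was 4.21 ± 0.62 (adjusted p = 5.11e-05), 7.69 ± 0.61 (adjusted p = 2.5e-09) and 4.34 ± 1.11 (adjusted p = 0.0237). Bgn, biglycan, was 5.46 ± 0.62 (adjusted p = 2.21e-06) in Lung and 7.61 ± 0.60 (adjusted p = 2.5e-09) in Intestine. In Spleen 2 of the 13 fell, and in BM 0 passed. In Spleen and BM at most 1 gene of each of the other 4 lists passed. Dcn, Lum, Fbln1, Dpt and Mfap5 of this list and Loxl1 of the cross-linking list are also on the fibroblast list.

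The other marker lists moved as follows against Blood. Of all genes, 23.7% were called higher and 17.6% lower in Intestine, 10.7% and 5.16% in Lung, and 1.65% and 3.76% in Skin. Mural and smooth muscle markers summed to 1724, 5797 and 2942 in Intestine, 291, 236 and 72.3 in Lung, 87.6 to 142 in Skin, 26.8 to 50.9 in Blood, 24.9 to 54.4 in BM and 12.8 to 18.6 in Spleen. Of 9, 9 rose in Intestine, 5 in Lung and 0 in Skin, and Actg2 had no count in Skin. Macrophage markers summed to 824 to 1382 in Intestine, 802 to 2365 in Skin, 366 to 526 in Lung and 413 to 623 in Blood, and 5, 1 and 1 of 6 rose in Intestine, Skin and Lung. Schwann cell markers summed to 82.9 to 170.5 in Intestine, 63.2 to 81.2 in Skin, 6.40 to 28.3 in Lung and 13.4 to 21.2 in Blood, and 4 of 5 rose in Intestine and 0 in Lung or Skin. Epithelial markers other than keratins of the epidermis summed to 313 to 2523 in Lung, 178 to 330.4 in Intestine, 231 to 458 in Skin and 5.28 to 53.1 in Blood, and 6, 5 and 0 of 8 tested rose in Lung, Intestine and Skin. Cartilage markers summed to 189.6 at most in Skin, 59.1 in Intestine, 6.69 in Lung and 6.93 in Blood, with 3 of 7 tested, of which 2 rose in Intestine and 1 in Skin. Bone markers summed to 161 to 963 in Skin, 53.8 to 66.5 in Intestine, 29.1 to 182 in Lung and 95.6 to 115 in Blood, and of 3 tested 2 rose and 1 fell in Intestine and 0 passed in Lung or Skin. Bglap and Sp7 had no count in any Skin library, nor had Matn1 of the cartilage list. In Spleen and in BM at most 2 genes of any of these marker lists passed, the neutrophil list apart. The part of each of these cell types in the collagen levels was not tested.

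**Figure D5:**
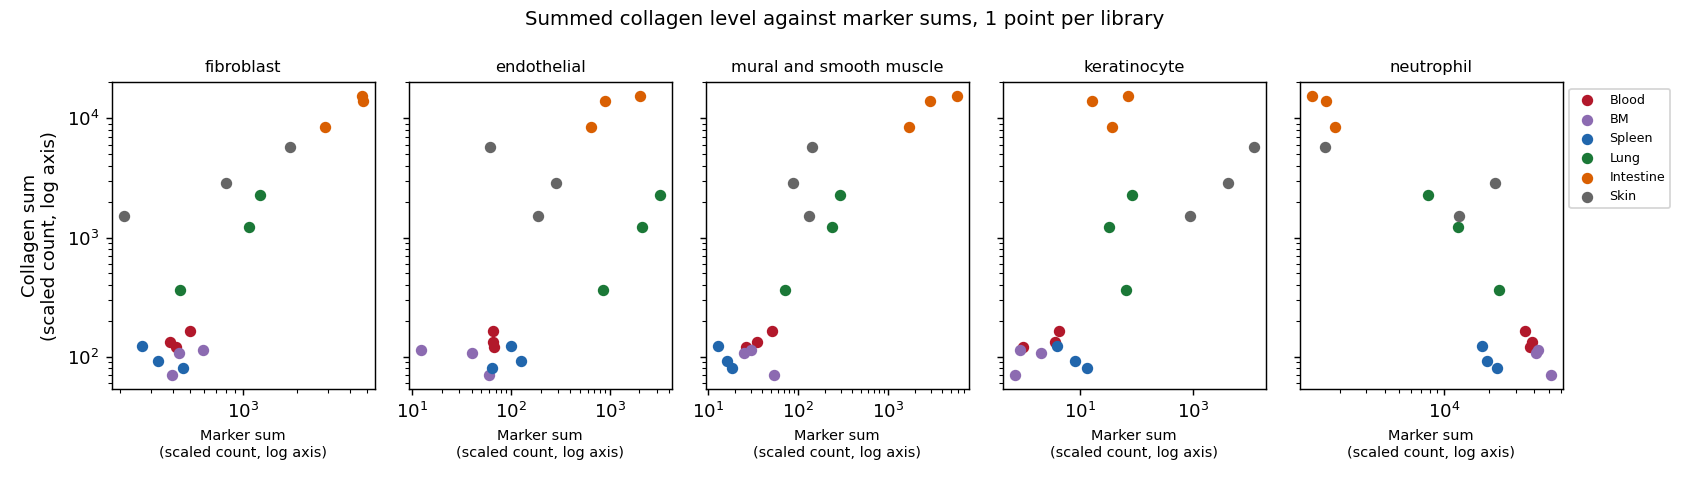
Summed scaled count of the 44 collagen genes (y, log axis) against the summed scaled count of 5 marker lists (x, log axis), 1 point per library coloured by tissue. The 3 Intestine libraries have the highest collagen sums, 8378 to 15283, with the highest fibroblast and mural sums and neutrophil sums of 1302 to 1855, and the Skin libraries alone exceed 900 for keratinocyte markers.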

How the data were processed

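The authors deposited 1 table of scaled counts for 32328 genes in 18 libraries of total RNA, read as single ends of 61 bases after Ovation Single Cell amplification, per the labels' protocols. CASAVA, RSEM 1.3.1, limma and mm10 are named, with no order, in the submitters' processing notes. The deposited signal values are called TPM, but each is an estimated count with 0.5 added, expressed per 1e+06 of a library size that differs from the plain total, without division by length. This was read from the values: estimated counts recovered from each library's floor sum to 2.94e+06 to 1.21e+07, and many are not whole, so no count model was used. Depth limits low members most in Skin replicate 2.

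Symbols, exon lengths and coordinates came from GENCODE vM21 (GRCm38) and promoters from RefSeq (GRCm38.p6). Values were fitted as log2(scaled count + 1) with limma 3.58.1 in R 4.3.3, for genes of at least 1 in at least 3 libraries, with 6 tissue means, a trended variance, 1 weight per tissue (0.223 for Skin and 0.923 to 2.13 for the others) and Benjamini-Hochberg adjustment within each comparison at 0.05. This test had been planned for length-scaled values. Weights were used because an unweighted fit to simulated data called unchanged genes in Skin. The procedure was tested on simulated data: an initial requirement on recovery was not met for Skin, and it was replaced by limits on the other tissues and on equal spread, which were met. Tables were made with Python 3.11.15 and pandas 2.3.3.

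Values are printed in every library for members with a mean of at least 5 in any tissue, and full statistics for up to 4 members of a class with the smallest F test p, beside others that a comparison called. The members, gene lists and tests were chosen with earlier results of these data known. Alternatives covered weights, pseudocount, filter, scaling, the tissues fitted, each library left out and a replicate block.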

Additional observations from a re-analysis of the deposited data

How the results depend on the processing

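Under the alternatives run, no called member reversed its direction. The counts of members called moved by over 1.5 times in these settings. The F test called 17 without the Intestine libraries, a setting chosen after seeing the data. Lung against Blood called 8 with no weights and 3 with no filter, and Lung against Intestine 3 with no filter. Skin against Blood called 9 with no weights and 0 with no filter. Spleen against Blood called 0 with no weights or with only the 6 libraries compared, and 1 with a pseudocount of 4, with median-of-ratios scaling, without the Intestine libraries or with the replicate block. BM against Blood called 1 with no filter. Skin against Lung called 9 with no weights, 4 with 1 weight per library, and 1 with a pseudocount of 4, with quantile scaling or with only the 6 libraries. Skin against Intestine called 22 with no weights, 17 with 1 weight per library, 4 with a pseudocount of 0.5, 17 with a pseudocount of 4, 0 with no filter, 16 with quantile scaling and 12 with only the 6 libraries. The mean summed level in Blood was 115 with median-of-ratios scaling against 139.9 as deposited. The cause of these shifts was not tested.

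With each library left out in turn the counts ran from 28 to 32 for the F test, 10 to 22 for Lung, 24 to 29 for Intestine, 2 to 6 for Skin, 1 to 3 for Spleen and 0 to 0 for BM against Blood, 0 to 1 for Skin against Lung, 0 to 8 for Skin against Intestine and 15 to 22 for Lung against Intestine. Leaving out a library lost at least once 7 of the 32 calls of the F test, 11 of 20 for Lung, 2 of 28 for Intestine, 3 of 5 for Skin and 1 of 2 for Spleen against Blood, 7 of 7 for Skin against Intestine and 6 of 21 for Lung against Intestine. Over all the alternatives, in the same order, 15, 3, 25, 0, 0, 0 and 3 calls were never lost where the member could be fitted. Col6a5 and Col24a1 fell under the filter without any 1 of the Intestine libraries and have no value there. Replicate numbers gave no clear pairing of the libraries: same-numbered libraries correlated by -0.0604 to 0.106 in their deviations, and 1 of 45 pairs was over 0.1. Correlations this weak cannot decide whether libraries share an animal or a day. The letters in the deposited column names do not all follow the numbers. Blood replicate 3 has D where replicate 3 of the other tissues has C. For 7 of the 18 libraries, the mean correlation with libraries of other tissues was highest for their own number, of 3 numbers. With the number as a block the counts were 31, 19, 26, 4, 1 and 0 for the F test and the 5 comparisons with Blood, 0 and 6 for Skin against Lung and Intestine, and 22 for Lung against Intestine.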
